A study of Mus musculus with 84 samples.

Results

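Cdh1, Cdh3, Dsc2, Cldn7 and Rab25, genes of epithelial cell contact and apical transport, were followed on spotted mouse cDNA arrays of mammary tissue. Their members were all clones that carry one of these symbols alone, which were 8 of the 15360 clones of the 15k arrays and 7 of the 8832 clones of the 8.7k arrays. The 15k arrays held 1 clone of Cdh1 (21n12), 1 of Dsc2 (19l5) and 2 each of Cdh3 (2o24 and 6n22), Cldn7 (19e12 and 29o5) and Rab25 (17b24 and 19c8). The 8.7k arrays held the same clones except Cldn7 clone 29o5. The Cdh3 clones disagreed with each other, and which of them reads P-cadherin mRNA was not settled, so each value of P-cadherin below is that of the clone named with it.

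The 15k arrays measured 65 RNA samples of mice. Normal glands came from 5 virgin nontransgenic FVB mice aged 9 weeks. Hyperplastic glands came from 7 MMTV-Wnt-1 transgenic mice aged 9 weeks, and 23 mammary tumors came from mice of the same transgene aged 9 to 56 weeks. A further 12 mammary tumors came from MMTV-Neu transgenic mice aged 32 to 60 weeks, whose transgene is wild-type rat Neu. Lung metastases comprised 10 from MMTV-Wnt-1 mice, 3 that arose spontaneously in MMTV-Neu mice and 2 that followed injection of Neu tumor cells into the tail vein of nontransgenic mice. The ages of the mice with metastases were not analysed here. Intestinal fat of 3 virgin FVB mice aged 12 weeks stood as a control for adipose tissue. The 8.7k arrays compared 10 tumors of MMTV-Wnt-1 mice with 6 tumors of MMTV-Wnt-1 mice that also lacked p53 (aged 9 to 14 weeks). The range of 9 to 56 weeks is given for the Wnt-1 tumors of both array types together. Ages of single tumors were not used, so p53 status and age cannot be told apart there. In both lines sequences of the mouse mammary tumor virus, which are active in mammary epithelium, drive the oncogene. For Wnt-1 these are enhancer elements of the viral long terminal repeat. The Wnt-1 mice had a mixed FVB, SJL and C57BL/6 background and the Neu mice were FVB, so oncogene and background cannot be told apart. Nor can the Wnt-1 transgene and background be told apart against the FVB normal glands. Tumors were compared with glands aged 9 weeks without the ages of single tumors, so tumor state and age cannot be told apart there.

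Epithelial cells hold to one another at adherens junctions, desmosomes and tight junctions. E-cadherin (Cdh1) and P-cadherin (Cdh3) are the classical cadherins of adherens junctions, which bind the same molecule on the next cell and are linked to actin through catenins. E-cadherin is made by mammary luminal cells and P-cadherin is best known from myoepithelial cells. Desmocollin 2 (Dsc2) is an adhesive cadherin of desmosomes, which anchor keratin filaments. Claudin 7 (Cldn7) is a membrane protein of tight junctions, and Rab25 is a small GTPase of the Rab11 family that steers recycling vesicles in epithelial cells.

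Each value is a log2 ratio of sample RNA (labeled with Cy5) to a common reference RNA (Cy3) pooled from several mouse organs and lactating mammary gland. A value of 0 is the level of the reference, and levels of different clones cannot be ranked against each other because each is relative to its own reference level. All 65 arrays gave a value for every member, and all 8 clones were tested in every comparison on the 15k arrays. A clone is said to rise or fall where the Benjamini-Hochberg adjusted p of limma over all clones of the array was under 0.05. Since the tissues were measured whole, fewer cells of a type and less RNA per cell cannot be told apart. The samples of a group were separate animals or tissues as far as their labels tell, and p-values measure only the spread between them.

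Upstream letters are shown for Rab25 and Cldn7, the members with an entry in the promoter table used here, and were searched for the E-box CACCTG, the letters bound by the Snail and Zeb repressors of epithelial genes. In the RefSeq sequence of build GRCm38.p6, the 250 bases before the Rab25 start lie at chr3:88548280-88548529 on the minus strand. The capitals mark CACCTG on either strand (the other strand reads CAGGTG), found 2 times, from 64 and from 53 bases before the start.
Rab25 upstream: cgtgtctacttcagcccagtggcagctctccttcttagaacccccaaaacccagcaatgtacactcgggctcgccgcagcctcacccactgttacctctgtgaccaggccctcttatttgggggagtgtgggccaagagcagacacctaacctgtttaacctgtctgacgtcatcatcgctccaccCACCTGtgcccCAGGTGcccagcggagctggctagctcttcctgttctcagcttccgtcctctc
Cldn7 has a pair of annotated starts on the plus strand. The 250 bases before the first (chr11:69964529-69964778) held no match, and those before the second (chr11:69965171-69965420) held 2, from 97 and from 57 bases before it, which are shown here with the bases around them.
Cldn7 upstream match at chr11:69965314-69965339: tcttcctcttCACCTGgacgaggagg
Cldn7 upstream match at chr11:69965354-69965379: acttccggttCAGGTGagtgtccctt
Of all 32851 upstream windows of this length, 17.2% held at least 1 match and 2.06% held 2 or more. A match is only a description of these letters.

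In normal glands the values of the member clones lay between -1.18 and 0.82. The 5 values of the E-cadherin clone were 0.04, -0.17, -0.24, 0.01 and -0.74. Rab25 clone 19c8 gave 0.23, 0.22, 0.03, 0.52 and -0.13, and the Dsc2 clone gave -0.59, -0.90, -1.01, -1.18 and -0.57. Cldn7 clone 29o5 gave 0.82, 0.71, 0.79, 0.68 and 0.68.

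**Figure D1:**
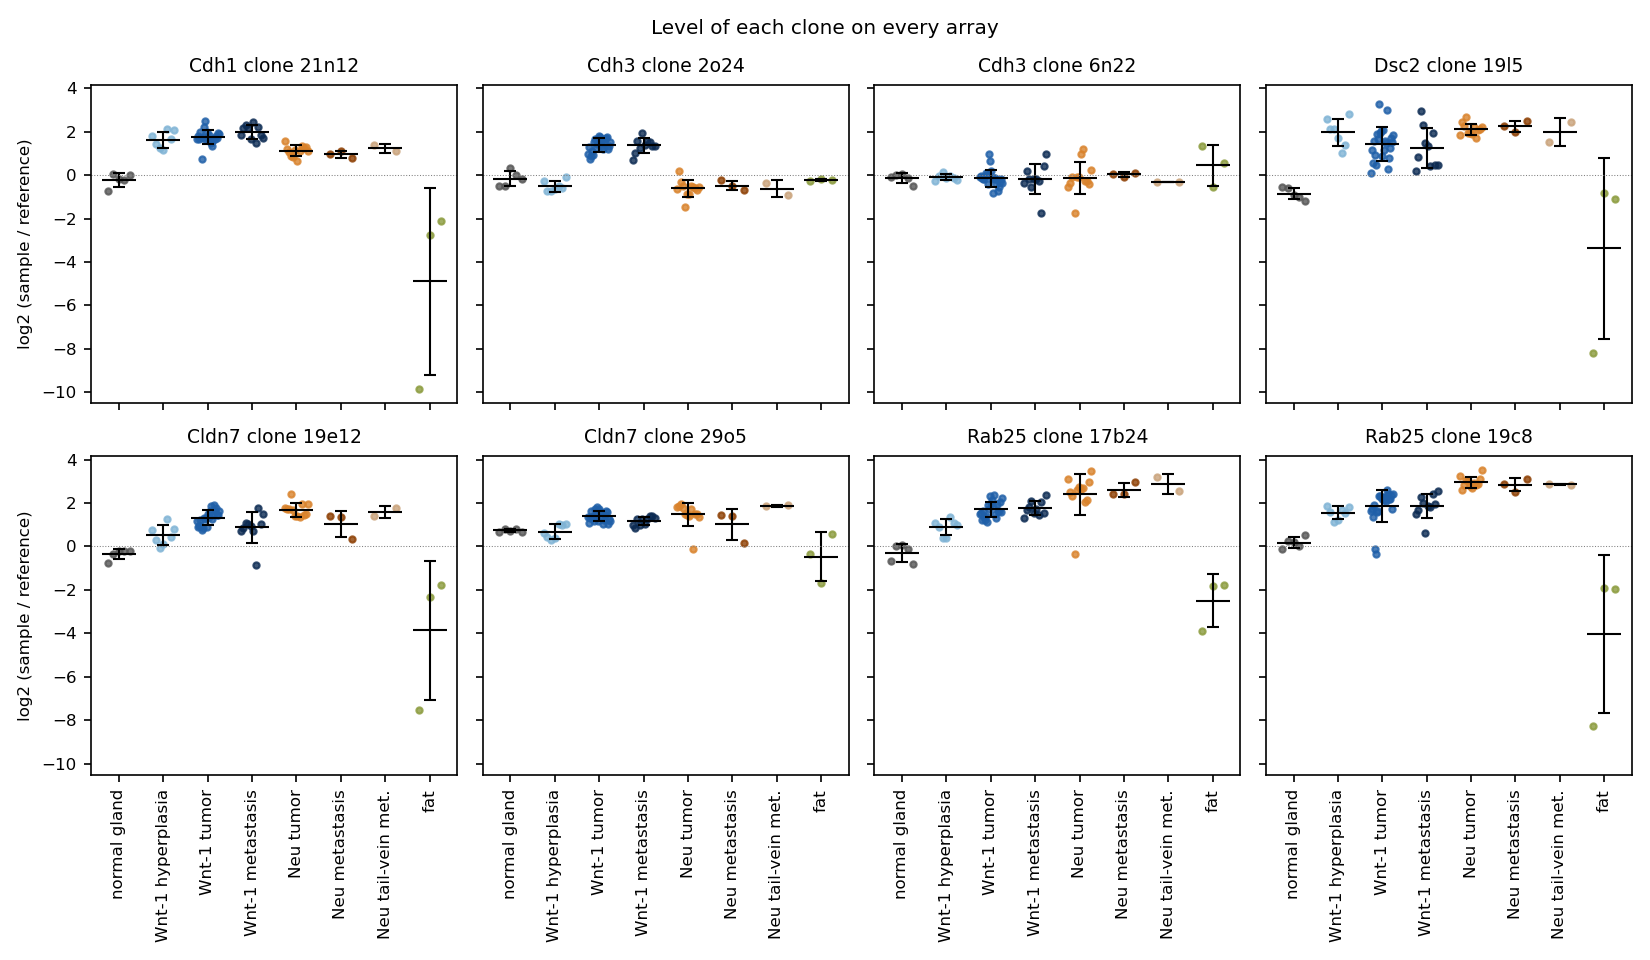
Log2 ratio of sample to reference (vertical axis) of each of the 8 clones on the 15k arrays, by group (horizontal axis); points are single arrays, and the bars are the mean and 1 SD. Cdh3 clone 2o24 stands above 0 in the 23 Wnt-1-induced tumors and the 10 Wnt-1 metastases and near or below 0 elsewhere, while the clones of Cdh1, Dsc2 and Rab25 are above the normal glands in all tumors but a few; one fat array lies far below the others.

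Hyperplastic Wnt-1 glands were compared with normal glands of the same age to see what accompanies the first visible step. E-cadherin, Dsc2 and Rab25 were already higher in hyperplasia, P-cadherin did not pass the test by either clone, and the Cldn7 clones disagreed. In all, 5 of the 8 clones rose and none fell, against 8.93% of all 15360 clones that rose and 13% that fell (21.9% either way). The median log2 difference was 1.03 over the members and -0.01 over all clones. The E-cadherin clone ranged from 1.14 to 2.10 (median 1.64) over the 7 hyperplastic glands, all above the 5 normal glands. Its mean rose 3.59-fold (log2 difference 1.85 ± 0.19 SE, limma adjusted p = 6.75e-05).

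Dsc2 gave the largest difference among the members. Its 7 hyperplastic glands lay between 1.01 and 2.81 and the highest normal gland at -0.57, a 7.01-fold difference in means (log2 2.81 ± 0.27, limma adjusted p = 4.58e-05). Rab25 rose 2.29-fold by clone 17b24 (adjusted p = 0.00108) and 2.61-fold by clone 19c8 (adjusted p = 8.86e-05). All 7 hyperplastic glands were above all normal glands with either clone. Cldn7 clone 19e12 rose 1.82-fold (adjusted p = 0.0081), again without overlap, from a mean of -0.35 ± 0.24 (SD, n = 5) to 0.51 ± 0.46 (n = 7). This call was lost with all groups in 1 fit (adjusted p = 0.176) and in a permutation test at a threshold of 0.001. The second Cldn7 clone, 29o5, stood at 0.74 ± 0.06 and 0.68 ± 0.33, a log2 difference of -0.05 ± 0.15 (adjusted p = 0.841). The P-cadherin clone 2o24 stood at -0.17 ± 0.36 in normal and -0.52 ± 0.25 in hyperplastic glands, and 4 of the 7 hyperplastic glands were below every normal one (log2 difference -0.35 ± 0.16, adjusted p = 0.149).

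Wnt-1-induced tumors were compared with hyperplastic glands of the same transgene to follow progression. P-cadherin clone 2o24 separated them most, while E-cadherin and Dsc2 did not pass the test. Clone 2o24 of Cdh3 ranged from 0.72 to 1.79 (median 1.43) in the 23 tumors and from -0.75 to -0.09 (median -0.59) in the 7 hyperplastic glands. Every tumor lay above every hyperplastic gland, and the means differed 3.71-fold (log2 1.89 ± 0.13, limma adjusted p = 2.7e-13). Both Cldn7 clones rose here, 19e12 by 1.76-fold (adjusted p = 6.37e-05) and 29o5 by 1.63-fold (adjusted p = 4.43e-06), with 15 and 21 of the 23 tumors above all hyperplastic glands. Rab25 rose 1.76-fold by clone 17b24 (adjusted p = 6.23e-05), with 19 of 23 tumors above all hyperplastic glands. The other Rab25 clone, 19c8, gave a log2 difference of 0.31 ± 0.28 (adjusted p = 0.391), although 15 of the 23 tumors lay above every hyperplastic gland. On Wnt-1-induced tumors 24 and 25 this clone read -0.12 and -0.35, below all hyperplastic glands, while clone 17b24 read 1.34 and 1.24 on the same arrays.

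In this step 4 of the 8 clones rose and none fell, against 20.1% and 21.7% of all clones, or 41.7% either way. E-cadherin did not pass the test, at 1.63 ± 0.38 (SD, n = 7) in hyperplasia and 1.73 ± 0.32 (n = 23) in tumors, with 2 of the 23 tumors above and 1 below all hyperplastic glands (log2 difference 0.11 ± 0.14, adjusted p = 0.588). Dsc2 spread most among the tumors, from 0.11 to 3.29 (median 1.51). All 7 hyperplastic glands lay within this range (log2 difference -0.53 ± 0.31, adjusted p = 0.186).

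**Figure D2:**
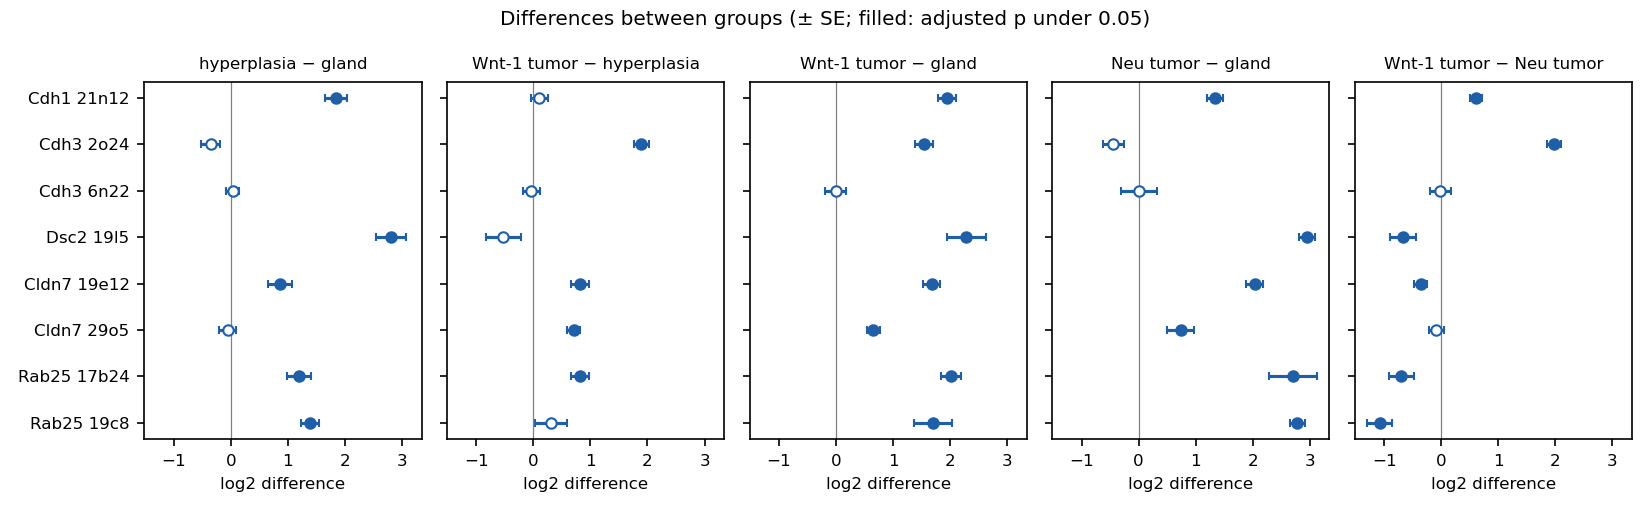
Log2 difference of group means (horizontal axis) for each of the 8 clones (vertical axis) in 5 comparisons, with bars of 1 SE; filled points passed an adjusted p of 0.05. Cdh3 clone 2o24 is filled only in the panels that hold Wnt-1-induced tumors, Cdh3 clone 6n22 lies near 0 in all 5, and the other clones mostly lie to the right of 0 against normal glands.

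Against normal glands, 7 of the 8 clones rose in Wnt-1-induced tumors, all but Cdh3 clone 6n22, while 24.3% of all clones rose and 25.1% fell (49.4% either way). The rise was 3.87-fold for E-cadherin (adjusted p = 1.42e-11), 2.91-fold for P-cadherin clone 2o24 (adjusted p = 1.43e-09) and 4.87-fold for Dsc2 (adjusted p = 2.4e-06). Rab25 rose 4.03-fold by clone 17b24 and 3.25-fold by clone 19c8, and Cldn7 rose 3.19-fold by clone 19e12 and 1.58-fold by clone 29o5. In 6 of these clones all 23 tumors lay above all 5 normal glands, and in Rab25 clone 19c8 21 of 23 did. How many of all clones separated the groups in this way was not counted.

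Neu-induced tumors were compared with the same 5 normal glands, which therefore enter both comparisons. Here 6 of the 8 clones rose and none fell, all but the Cdh3 clones, while 24.9% of all clones rose and 27.3% fell (52.2% either way). Dsc2 ranged from 1.71 to 2.67 (median 2.09) in the 12 tumors, all above the normal glands, and rose 7.73-fold (log2 2.95 ± 0.14, limma adjusted p = 8.4e-12). Rab25 rose 6.86-fold by clone 19c8 (adjusted p = 5.81e-12), with values from 2.61 to 3.50, and 6.54-fold by clone 17b24 (adjusted p = 2.44e-05). The latter clone read -0.35 on Neu-induced tumor 67, within the range of the normal glands, while 19c8 read 3.06 on that array. E-cadherin rose 2.53-fold (adjusted p = 2.47e-07) and Cldn7 rose 4.10-fold by clone 19e12 (adjusted p = 2.89e-09). By clone 29o5 Cldn7 rose 1.67-fold (adjusted p = 0.0131), with 11 of 12 tumors above all normal glands and tumor 75 below them at -0.12, a call that the permutation test did not make. P-cadherin clone 2o24 was lower in Neu-induced tumors than in normal glands by 0.44 ± 0.19 on the log2 scale but missed the threshold (adjusted p = 0.0638). It passed without normal gland 13 (adjusted p = 0.0441), normal gland 17 (0.0494) or Neu-induced tumor 56 (0.0167), and with all groups in 1 fit (0.0297).

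Tumors of both oncogenes were then compared with each other. E-cadherin and P-cadherin clone 2o24 were higher in Wnt-1-induced tumors, and Rab25, Dsc2 and Cldn7 clone 19e12 were higher in Neu-induced tumors. The counts were 2 clones higher and 4 lower in Wnt-1-induced tumors, against 21.7% and 21.9% of all clones, and 43.6% either way. The P-cadherin clone 2o24 had no overlap, since the highest of the 12 Neu-induced tumors (median -0.57) stood at 0.20 and the lowest of the 23 Wnt-1-induced tumors at 0.72. Its means differed 3.95-fold (log2 1.98 ± 0.12, limma adjusted p = 3.68e-16). E-cadherin differed 1.53-fold in the same direction (log2 0.61 ± 0.11, adjusted p = 1e-05), with 20 of 23 above all Neu-induced tumors. Within single arrays, the log2 ratio of Cdh1 minus that of Cdh3 clone 2o24 was 0.36 ± 0.38 in Wnt-1-induced tumors (SD, n = 23), 1.72 ± 0.37 in Neu-induced tumors (n = 12), 2.14 ± 0.26 in hyperplastic glands (n = 7) and -0.05 ± 0.41 in normal glands (n = 5). These cadherin genes lie near each other on the mouse genome, with 3 genes of all kinds but 0 protein-coding genes between them in RefSeq of GRCm38.p6.

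**Figure D3:**
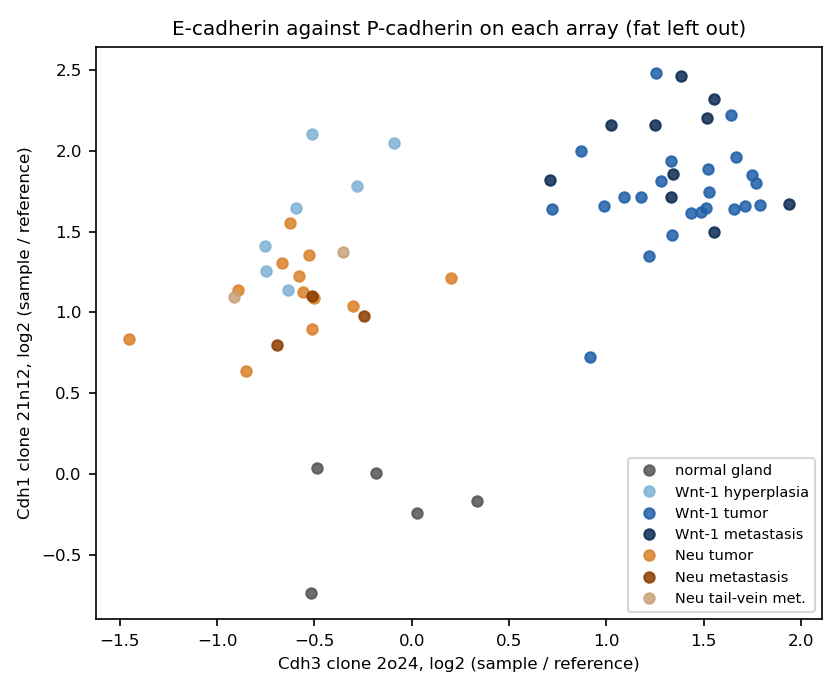
Log2 ratio of Cdh1 clone 21n12 (vertical axis) against Cdh3 clone 2o24 (horizontal axis), 1 point per 15k array, colored by group, with the 3 fat arrays left out. Wnt-1-induced tumors and metastases lie at the upper right, hyperplastic glands and Neu-induced samples at the upper left with Cdh3 at or below 0.20, and normal glands at the bottom.

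In Neu-induced tumors Rab25 was 2.11-fold higher by clone 19c8 than with Wnt-1 (log2 1.08 lower in the latter, SE 0.21, adjusted p = 7.89e-05), and each of the 23 Wnt-1-induced tumors lay below all 12 Neu-induced ones. By clone 17b24 it was 1.62-fold higher (adjusted p = 0.00848), with medians of 1.64 and 2.62 and ranges that overlapped. Dsc2 was 1.59-fold higher in Neu-induced tumors (adjusted p = 0.0164), with 16 of the 23 Wnt-1-induced tumors below all Neu-induced ones and 2 above. Cldn7 was 1.29-fold higher by clone 19e12 (adjusted p = 0.00947), with 12 of 23 below. By clone 29o5 the log2 difference was -0.08 ± 0.13 (adjusted p = 0.637), or -0.23 with an adjusted p of 0.0276 without Neu-induced tumor 75. All 4 clones that were lower in Wnt-1-induced tumors lost the call when the arrays were quantile normalized, with log2 differences of -0.23 and -0.56 for Rab25 clones 17b24 and 19c8 (adjusted p = 0.376 and 0.0554), -0.25 for Dsc2 (0.400) and -0.01 for Cldn7 clone 19e12 (0.938). Both cadherin calls passed under that scaling, which gave a split of 2 higher and 0 lower. With all groups in 1 fit E-cadherin, Dsc2 and Cldn7 clone 19e12 lost their calls (limma adjusted p = 0.0983, 0.138 and 0.276). A permutation test at a threshold of 0.001 lost Rab25 clone 17b24, Dsc2 and Cldn7 clone 19e12.

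Markers of cell types moved with these groups. The mean over 7 of 16 luminal genes ran from -0.23 to 0.16 in normal glands and from 0.35 to 0.62 in hyperplastic glands, without overlap. For the epithelial and myoepithelial markers Krt19, Cnn1 and Cnn2, the authors reported no significant difference between these glands. The mean log2 ratio over 15 of 19 listed adipocyte genes ran from 1.86 to 2.18 in normal glands, from 0.72 to 1.18 in hyperplastic glands, from -2.05 to -0.74 in tumors with Wnt-1 and from -1.78 to -1.03 with Neu. Fat itself stood at 2.62 to 3.10. Adiponectin (Adipoq) had group means of 4.66, 3.18, -0.64 and -1.96 in the same order of glands and tumors. Over 7 of 13 fibroblast and matrix genes the range was 0.75 to 1.48 in normal glands, 0.52 to 1.15 in hyperplasia, -1.07 to 0.80 in tumors with Wnt-1 and -2.10 to 0.05 with Neu. Endothelial genes (11 of 13) ran from 0.07 to 0.44, -0.32 to -0.18, -1.01 to -0.30 and -0.94 to -0.64 in the same order, and leukocyte genes (11 of 19) from -0.52 to -0.16, -0.86 to -0.20, -1.25 to -0.38 and -1.42 to -0.77. The part of these shifts in the members' values was not tested.

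Between the tumor types, the luminal genes averaged 0.08 to 1.23 with Wnt-1 and -0.52 to 0.07 with Neu. Most of this difference came from 1 of the 7 measured genes, keratin 19 (Krt19), with group means of 2.60 and -3.43. The receptor Kit stood at 2.75 and 3.13 and the luminal transcription factor Gata3 at 1.15 and 1.92, both higher with Neu. The list was not averaged without Krt19. Over 6 of 14 myoepithelial and basal genes the means ran from -0.18 to 1.04 with Wnt-1 and from -1.27 to 0.01 with Neu, and calponin 1 (Cnn1), a protein of contractile myoepithelial cells, stood at 0.97 and -2.81. Myh11, Mylk and Oxtr were also higher as group means with Wnt-1 (0.40, 0.11 and 0.69) than with Neu (-1.02, -1.10 and -0.40), whereas Krt14 stood at -0.10 and -0.20 and Igfbp5 went the other way, at 0.96 and 2.42. Normal and hyperplastic glands, where P-cadherin clone 2o24 was low, read -0.20 to 0.17 and -0.02 to 0.64 for this list. The part of myoepithelial cells in the P-cadherin difference was not tested.

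**Figure D4:**
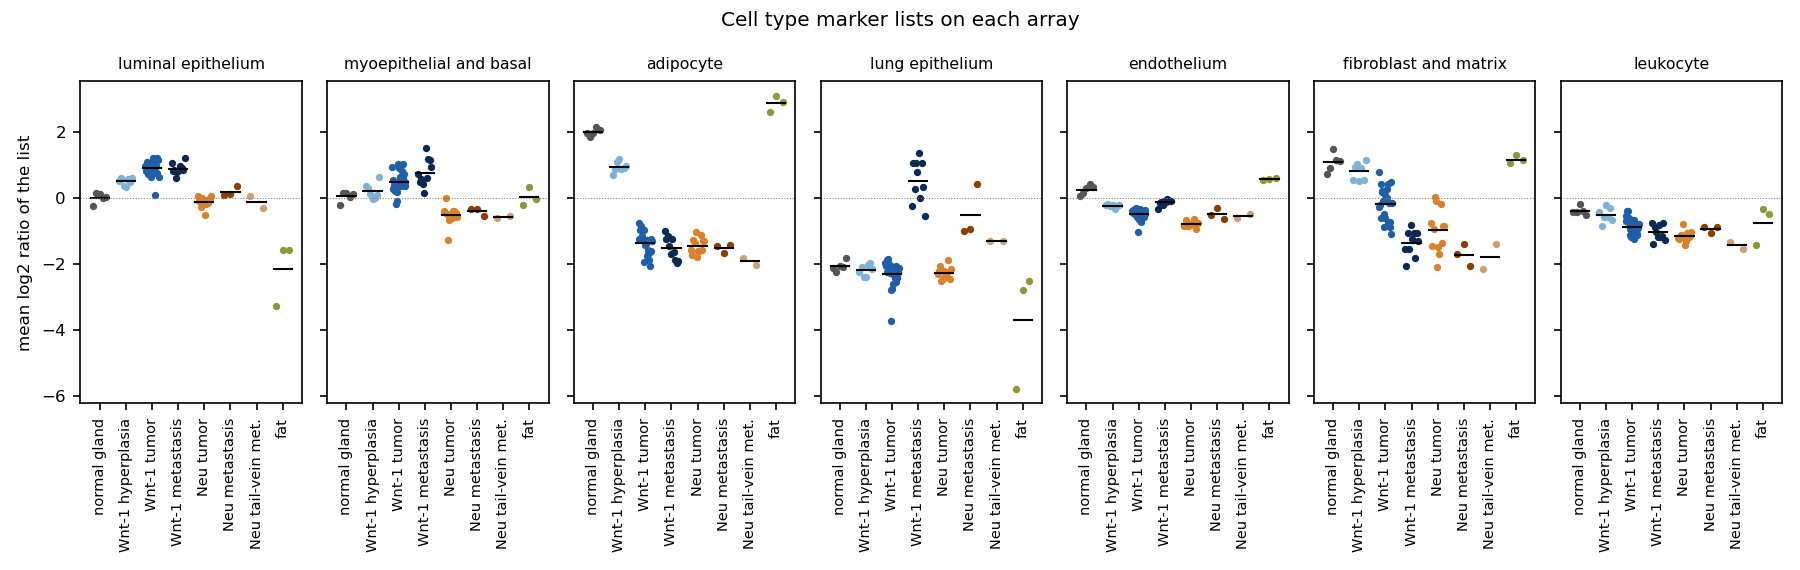
Mean log2 ratio of sample to reference over the measured genes of 7 cell type marker lists (vertical axis), by group (horizontal axis); points are single 15k arrays and lines are group means. Adipocyte genes fall from fat and normal glands to tumors, lung epithelium genes are highest in the Wnt-1 metastases (-0.55 to 1.39), and the myoepithelial and basal list lies higher in samples of Wnt-1 mice than of Neu mice.

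The fat samples were compared with the tumors and with the normal glands, which are rich in adipose tissue. The part of adipose tissue in the members' values was not tested. In fat, 6 of the 8 clones fell below the 35 tumors, all but the Cdh3 clones, against 31.6% of all clones that fell and 21.8% that rose (53.3% either way). E-cadherin read -9.83, -2.75 and -2.11 on the fat arrays, and Rab25 clone 19c8 read -8.24, -1.91 and -1.95. Dsc2 read -8.20, -0.83 and -1.09. The first value of each is of fat array 44, whose log2 ratios had an SD of 2.59 over all clones against 1.13 and 0.97 for the others, so the folds against fat rest on that array and only their direction is given here. P-cadherin clone 2o24 was even in fat, at -0.26, -0.19 and -0.22, within the range of normal glands. Against normal glands, 1 of the 8 clones (Rab25 17b24) fell in fat and none rose, with 3.78% of all clones falling and 5.31% rising (9.09% either way). All 3 fat arrays were nevertheless below all 5 normal glands for E-cadherin, both Rab25 clones and both Cldn7 clones. The share of all clones that separated so, or that fell without fat array 44, was not counted. Without fat array 44, 4 clones fell, namely E-cadherin (log2 difference -2.21, limma adjusted p = 0.00194), Rab25 clone 19c8 (-2.11, 0.000632), Rab25 clone 17b24 and Cldn7 clone 19e12 (-1.68, 0.00276). Rab25 clone 17b24 lost its call without any of the 5 normal glands (adjusted p from 0.0596 to 0.0944) and without fat array 45 (0.0601).

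Lung metastases were compared with the primary tumors of the same oncogene. Between the 10 Wnt-1 metastases and the 23 Wnt-1-induced tumors, 0 of the 8 clones passed limma at an adjusted p of 0.05, with 2.47% of all clones higher and 2.15% lower (4.62% either way). At an unadjusted p under 0.05 were E-cadherin (higher by 0.25 ± 0.12 on the log2 scale, adjusted p = 0.242), Cldn7 clone 19e12 (-0.44 ± 0.17, 0.146) and Cldn7 clone 29o5 (-0.22 ± 0.09, 0.144), and the permutation test called 0. P-cadherin clone 2o24 ranged from 0.71 to 1.94 in the metastases (median 1.36) and from 0.72 to 1.79 in the tumors. Dsc2 varied as widely in metastases as in tumors, from 0.18 to 2.95. Metastasis 49 stood apart in Cldn7 clone 19e12 at -0.86, while clone 29o5 read 1.26 on that array.

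Between the 3 spontaneous Neu metastases and the 12 Neu-induced tumors, 0 of 8 clones passed limma, with 0.195% of all clones called, all of them higher, and the permutation test also called 0. At an unadjusted p under 0.05 was Cldn7 clone 19e12 alone, at 1.41, 1.37 and 0.32 against a tumor range of 1.36 to 2.41 (adjusted p = 0.591). Clone 29o5 gave the same order with 1.46, 1.41 and 0.18, and the low values of both came from metastasis 61. The difference between the metastasis effects of the oncogenes was called for 0 of the 8 clones by limma's interaction term (0.0651% of all clones; unadjusted p of the members from 0.0698 to 0.800). For Rab25 clone 19c8 the 2 metastases after tail-vein injection read 2.87 and 2.85, and for E-cadherin 1.38 and 1.09. These values lay within the range of the Neu-induced tumors. Dsc2 read 1.53 and 2.42, the former below all 12 Neu-induced tumors (lowest 1.71).

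The metastases of the oncogenes differed from each other in 3 of 8 clones, 2 higher and 1 lower in Wnt-1 metastases, against 7.13% and 8.07% of all clones (15.2% either way). P-cadherin clone 2o24 was 3.59-fold higher in Wnt-1 metastases, with all 10 above -0.25, -0.51 and -0.69 in the Neu metastases (limma adjusted p = 6.12e-05). E-cadherin was 2.04-fold higher (adjusted p = 0.00277), also without overlap, but lost the call with all groups in 1 fit (adjusted p = 0.217) and in the permutation test. Rab25 clone 17b24 was 1.79-fold higher in Neu metastases (adjusted p = 0.0156), a call lost without Neu metastasis 61 (adjusted p = 0.112), under quantile normalization (0.184), with all groups in 1 fit (0.114) and in the permutation test. Rab25 clone 19c8 missed the threshold (adjusted p = 0.0564) but passed with the tail-vein metastases added (adjusted p = 0.00964). It also passed without Wnt-1 metastasis 42, 50 or 62 (adjusted p from 0.0266 to 0.0422). The tail-vein metastases are numbered 53E and 56E, and spontaneous Neu metastases 53 and 56 share these numbers. The fit took them as separate samples, and whether they share a donor mouse was not known. Lung epithelium genes moved with the metastases. The mean over 9 of 17 lung epithelium genes was -0.55 to 1.39 in Wnt-1 and -1.01 to 0.42 in Neu metastases, against -3.74 to -1.86 and -2.50 to -1.88 in the tumors, and surfactant protein C (Sftpc) stood at 1.10 and -0.16 in the metastases against -5.22 and -5.52 in the tumors. Not all 9 genes moved so, since Sftpd stood at -1.40 and -0.75 in the metastases against -1.54 and -0.83, and Aqp5 at 0.19 and 1.97 against 0.73 and 2.05. The part of lung epithelium in these values was not tested.

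On the 8.7k arrays, 0 of the 7 clones differed between 6 Wnt-1-induced tumors that lacked p53 and 10 that did not, by limma (0.147% of all clones higher and 0.294% lower, 0.442% either way) or by the permutation test, and 0 had an unadjusted p under 0.05. E-cadherin ranged from -0.07 to 1.75 (median 1.41) without p53 and from 0.27 to 2.17 (median 1.67) with it. The ranges overlapped for each of the 7 clones. P-cadherin clone 2o24 was more spread without p53, from -0.26 to 1.63 against 0.65 to 1.44, with 3 of the 6 tumors above and 3 below all tumors with p53. Tumor 88, which lacked p53, had the lowest value of its group for E-cadherin (-0.07), Dsc2 (0.59) and both Rab25 clones (0.46 and 0.57).

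Clones of the same gene did not read alike in every case. The P-cadherin clones had a Pearson r of -0.10 over the 65 arrays. Clone 6n22 had group means between -0.32 and 0.45 and passed the test in none of the comparisons (it was higher in fat than in tumors without fat array 45, limma adjusted p = 0.0151), so each difference given for P-cadherin rests on clone 2o24 alone. On the 8.7k arrays, Wnt-1-induced tumors read 1.07 ± 0.27 by clone 2o24 and 0.05 ± 0.55 by clone 6n22 (SD, n = 10). The Rab25 clones had an r of 0.87 and the Cldn7 clones an r of 0.67. These are descriptions over arrays that span all groups.

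**Figure D5:**
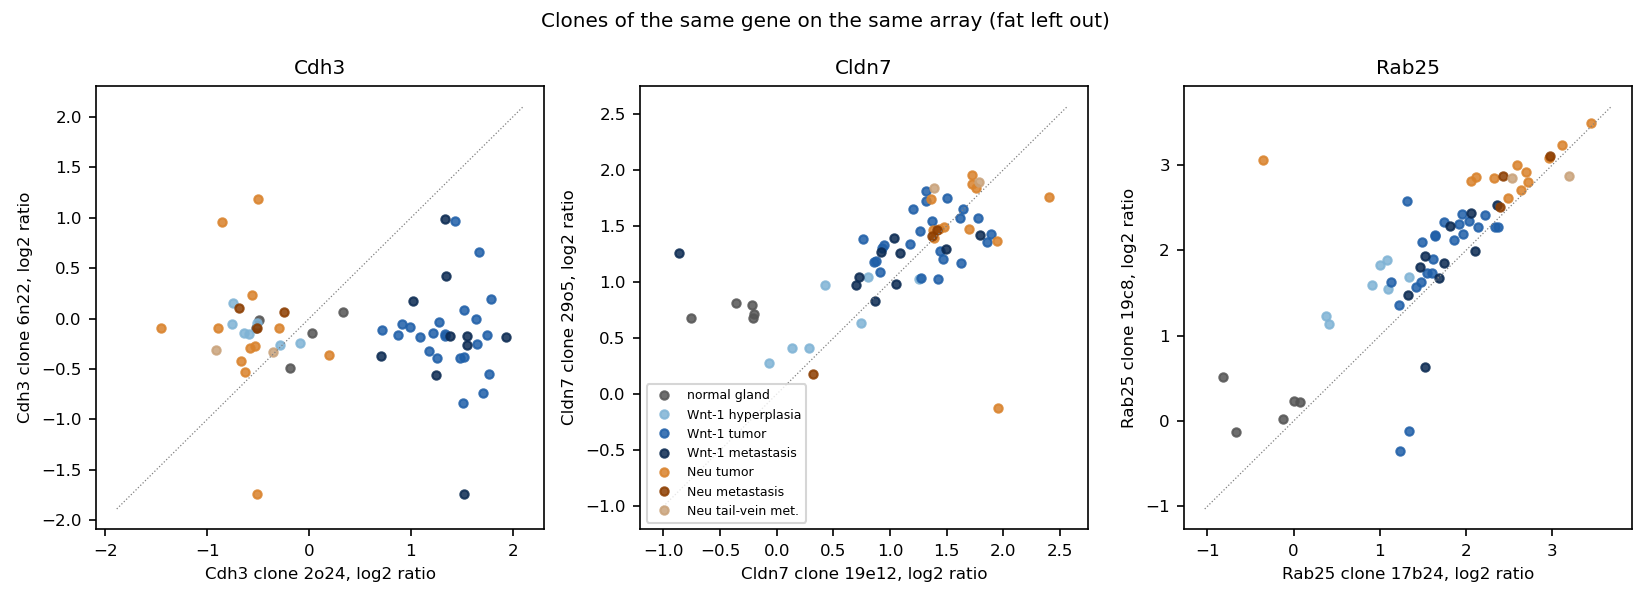
Log2 ratios of the 2 clones of Cdh3, Cldn7 and Rab25 against each other (both axes), 1 point per 15k array, fat left out; the dotted line marks equal values. Rab25 clones rise together, with 17b24 below 19c8 on all normal, hyperplastic and Neu-induced tumor arrays, normal glands lie off the line for Cldn7, and the Cdh3 clones show no common order.

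Within tumor types, 28 pairs of clones were correlated in each. Among the 23 Wnt-1-induced tumors 2 pairs passed a permutation test of Pearson's r with Benjamini-Hochberg adjustment. Cldn7 clone 19e12 and Rab25 clone 19c8 had r = 0.64 (permutation p = 0.00017, adjusted p = 0.0048) and Spearman rho = 0.61 (permutation adjusted p = 0.0336). Without the 2 tumors farthest from the median of Cldn7 clone 19e12, r was 0.55. Tumors were left out by the first clone of a pair only, so this does not address outlying values of the second clone. The other pairs of a Cldn7 and a Rab25 clone did not pass. Cldn7 clone 19e12 had r = 0.47 with Rab25 clone 17b24 (permutation adjusted p = 0.115). Cldn7 clone 29o5 had r = 0.07 with Rab25 clone 19c8 and -0.03 with 17b24. Between the Cldn7 clones r was 0.29 in these tumors (permutation adjusted p = 0.401). The Rab25 clones had r = 0.59 (permutation adjusted p = 0.0274) and rho = 0.70 (permutation adjusted p = 0.00952), with r = 0.60 without the 2 tumors farthest by clone 17b24. By Spearman's rho alone a further pair passed, Cdh3 clone 6n22 with Cldn7 clone 19e12, with rho = -0.58 (permutation adjusted p = 0.0372). Its r was -0.45 (permutation adjusted p = 0.115), or -0.51 without the 2 tumors farthest by Cdh3 clone 6n22. E-cadherin and P-cadherin clone 2o24 had r = 0.26 there. Among the 12 Neu-induced tumors 0 of 28 pairs passed after adjustment by permutation.

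The genes whose levels followed each member most closely over the 65 arrays were listed by Pearson r. For E-cadherin they were Epb41l5 (0.96), Sox9 (0.95) and Afap1 (0.95), and for P-cadherin clone 2o24 Cnn2 (0.90), Smad1 (0.88) and Grk5 (0.88). Dsc2 was followed by Raver2 (0.91), Lad1 (0.90) and Ttc30b (0.88), Cldn7 clone 19e12 by Dapp1 (0.93), Sox9 (0.93) and Sertad4 (0.93), and Rab25 clone 19c8 by Urah (0.95), Sertad4 (0.95) and Crb3 (0.95). These values span all groups, fat included, and were lower inside the tumor groups, where Epb41l5 and E-cadherin had r = -0.07 in tumors with Wnt-1 and 0.45 with Neu. Raver2 and Lad1 still had r = 0.77 and 0.75 with Dsc2 in Wnt-1-induced tumors.

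The wider families of junction, polarity and epithelial genes were read from 81 other measured genes, with the clones of a gene averaged. The lists overlap: plakoglobin (Jup) counts among both adherens junction and desmosome genes, and N-cadherin (Cdh2) among both adherens junction genes and other cadherins. From normal to hyperplastic glands 18 of the 81 rose and 11 fell, against 9.58% and 14.3% of 7766 genes (23.8% either way). None of 15 adherens junction genes passed (median log2 difference -0.04). In a list of 14 genes that mixes the epithelial program with its repressors, 7 rose and 1 fell. In that list, the vesicle protein gene Mal2 rose 1.98-fold (limma adjusted p = 0.000144), and the epithelial transcription factors Klf5 and Ehf rose 2.36-fold (0.00144) and 2.00-fold (0.00823). Desmoglein 2 (Dsg2), the partner of desmocollins in desmosomes, rose 2.25-fold (adjusted p = 0.000209), and 2 of 6 desmosome genes rose and 1 fell. Of 23 polarity and apical trafficking genes 4 rose and 3 fell, with Rab11fip1, which binds Rab11 and Rab25, 2.21-fold higher (adjusted p = 0.0001) and the apical polarity gene Crb3 1.44-fold higher (0.00693). Of 20 tight junction genes 4 rose and 4 fell. Claudin 4 (Cldn4) fell 1.82-fold (adjusted p = 0.00385), opposite to Cldn7 clone 19e12. Of 5 other cadherins 1 rose and 2 fell.

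From hyperplasia to Wnt-1-induced tumors 33 of the 81 rose and 9 fell, against 21.9% and 22.2% of all genes (44.1% either way). Of 15 adherens junction genes 11 rose and none fell, with a median log2 difference of 0.59 against -0.03 over all genes. The actin crosslinker Actn1 rose 1.77-fold (adjusted p = 3.47e-10), p120 catenin (Ctnnd1) 1.5-fold (5.67e-08) and beta-catenin (Ctnnb1), which joins cadherins and also transmits Wnt signals, 9.26-fold on its 1 clone (4.1e-07). Of the 14 genes of the epithelial program and its repressors 7 rose and 3 fell. Ehf was 3.06-fold higher (limma adjusted p = 1.22e-09) and the repressor Zeb2 1.40-fold lower (3.78e-07). Crb3 rose 1.69-fold (adjusted p = 4.22e-07) and the kinase Stk11 1.82-fold (3.08e-10) among 8 polarity genes that rose and 2 that fell of 23. Of 20 tight junction genes 6 rose and 3 fell. Cingulin (Cgn) rose 1.51-fold (adjusted p = 3.75e-06) and Cldn23 2.15-fold (1.21e-06), while Cldn4 fell 1.76-fold (3.64e-08). Of 6 desmosome genes 1 rose and 1 fell, plakoglobin (Jup) by 1.18-fold (adjusted p = 0.00386) and periplakin (Ppl) by 1.65-fold (1.62e-07). Among 5 other cadherins Fat1 rose 1.54-fold (adjusted p = 2.14e-05) and N-cadherin (Cdh2) 1.68-fold (2.6e-05).

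Neu-induced tumors against normal glands had 31 of the 81 genes higher and 16 lower, against 26.8% and 28.8% of all genes (55.6% either way). Of 15 adherens junction genes 8 rose and 2 fell, of 6 desmosome genes 2 rose and 1 fell, and of 20 tight junction genes 5 rose and 7 fell. Dsg2 rose 4.33-fold (adjusted p = 3.28e-10) alongside its partner Dsc2, and Jup rose 1.69-fold (9.34e-05). Of 23 polarity genes 9 rose and 1 fell, among them Crb3 4.12-fold (adjusted p = 1.12e-11), Llgl2 1.94-fold (5e-08) and the ezrin-binding scaffold Slc9a3r1 2.52-fold (9.44e-07). Of the 14 genes of the epithelial program and its repressors 8 rose and 3 fell. Ehf was 6.93-fold higher (limma adjusted p = 1.85e-08) and the mesenchymal transcription factor Twist1 4.97-fold lower (1.26e-10). Other cadherins went down, 3 of 5 and none up, with VE-cadherin (Cdh5), the cadherin of endothelium, 2.84-fold lower (adjusted p = 1.08e-10) and N-cadherin 2.16-fold lower (1.04e-05). The endothelial and fibroblast lists given above were also lower in these tumors.

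Between the tumor types 21 of the 81 genes were higher and 17 lower in Wnt-1-induced tumors, against 22.8% and 23% of all genes (45.8% either way). N-cadherin was higher by 3.38-fold (adjusted p = 5.2e-15), the same direction as E-cadherin and P-cadherin clone 2o24, and 4 of 5 other cadherins were higher and none lower. The actin linker vinculin (Vcl) was 2.40-fold higher (adjusted p = 2.56e-16) among 4 adherens junction genes higher and 3 lower of 15. Of 6 desmosome genes 3 were lower and 1 higher, and Dsc2 was lower. Dsg2 was 1.68-fold higher in Neu-induced tumors (adjusted p = 0.00841) and Jup 1.26-fold (0.000111). Polarity genes were higher in 3 and lower in 6 of 23, and Crb3 was 1.69-fold higher in Neu-induced tumors (adjusted p = 4.87e-10), as Rab25 was. Of 20 tight junction genes 5 were higher and 4 lower in Wnt-1-induced tumors, led by Amotl1 at 1.94-fold (adjusted p = 1.66e-11). Of the 14 genes of the epithelial program and its repressors 5 were higher and 2 lower in Wnt-1-induced tumors. The 3 that led were transcription factors known to repress Cdh1, all higher with Wnt-1. They were Twist1 (2.28-fold, adjusted p = 2.23e-10), Tcf3 (1.89-fold, 1.99e-13) and Zeb2 (1.21-fold, 0.000266). Their part in the E-cadherin values was not tested.

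In Wnt-1 metastases against Wnt-1-induced tumors, 3 of the 81 genes rose and 1 fell, against 2.88% and 2.58% of all genes (5.46% either way). Those that rose were Nectin1 (1.3-fold, adjusted p = 0.0095), Rab11b (1.32-fold, 0.0459) and Cdh5 (1.51-fold, 3.28e-05), and Twist1 fell 2.67-fold (0.00553). The endothelial list ran from -0.32 to -0.03 in these metastases and from -1.01 to -0.30 in the tumors, and the fibroblast and matrix list from -2.07 to -0.80 and from -1.07 to 0.80. The part of endothelial and stromal cells in these values was not tested.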

How the data were processed

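RNA of mouse mammary tissue, tumors, lung metastases and fat was labeled with Cy5 and hybridized with a Cy3-labeled common reference to cDNA arrays. The authors scanned the slides, normalized each array and deposited log2 ratios of sample to reference. The direction is that of the labels and methods. Taking the logs to base 2, all of the 3031 lowest ratios (under 0.01) came out as whole multiples of 1e-04 within a tolerance of 0.02. The authors left out genes of low spot quality, which was not analysed here, so no clone was dropped for it. Medians of the 15k arrays ran from -0.144 to 0.0431. Precision is limited by how many arrays a group has. Versions of the authors' tools are not given in the sources used here.

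The members and gene lists were chosen with earlier results of these data known. Clones were named through the platform annotation: 11860 of the 15k clones carried 1 symbol, 705 several and 2795 none, and 11696 were matched to current RefSeq genes. Each comparison was fitted on its own groups in R 4.3.3 with limma 3.58.1 (lmFit, eBayes), with Benjamini-Hochberg adjustment over all clones and an adjusted p under 0.05, for clones measured on 50% or more of each group's arrays. Pathway genes were fitted after clones were averaged per gene. Those named were taken from the 3 of smallest adjusted p among those called in each list, and not all of these are given. Markers were averaged per array. Correlations used 100000 permutations, two-sided, in Python 3.11.15. The genes most alike were ranked on the clone of largest SD of each member. The fits were tested on simulated data.

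The alternatives were array centring, quantile normalization, eBayes with trend and robust, clones with a value on every array, ratios under 0.01 or over 100 set missing, arrays of SD over 1.3 left out, all groups in 1 fit, a permutation test of t-statistics after that of the methods at its threshold (P under 0.001), with fewer regroupings (100, pooled over clones) than the study drew and without its quality filter, single arrays left out, tail-vein metastases added and replicate blocks. Leaving out arrays of groups of over 5 was added after the data were seen. One group of the 8.7k arrays is not reported here, and Ha-Ras status was not used.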

Additional observations from a re-analysis of the deposited data

Results flagged for a closer look

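Within groups of 4 to 10 arrays, 38 sets of 1 clone and 1 group were examined for a single array far from the rest, and 6 were found, where chance alone gives about 1 in 20. Tumor 88, which lacked p53, gave 3 of them. It read -0.0693 for E-cadherin, where the next tumor of its group read 1.26. It read 0.46 for Rab25 clone 17b24 and 0.57 for clone 19c8, where the next tumors read 1.80 and 1.98. Wnt-1-induced tumor 95 of the 8.7k arrays read 0.27 for E-cadherin and the next tumor 1.55, while both Rab25 clones on that array read 1.84 and 2.19. Wnt-1 metastasis 49 read -0.86 for Cldn7 clone 19e12 and the next metastasis 0.70. Normal gland 13 read -0.76 for the same clone, and the next normal gland read -0.36.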

How the results depend on the processing

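Of 2714 values of single clones under alternatives, 2658 kept their side of the threshold, 27 lost a call and 29 gained one. No called value changed sign, and 92 uncalled values did. Counts of members called moved by over 1.5 times in 3 comparisons. Between the tumor types the count of 6 became 2 with quantile normalization, 3 with all groups in 1 fit and 3 with the permutation test. Between Wnt-1 and Neu metastases the count of 3 became 1 with all groups in 1 fit and 1 with the permutation test, and it was 2 to 4 without single arrays. Between fat and normal glands the count of 1 became 4 with quantile normalization, with ratios under 0.01 or over 100 missing and with arrays of SD over 1.3 left out, 6 with all groups in 1 fit, and 0 with the permutation test and with trend and robust. Without single arrays it was 0 to 4. The cause of these shifts was not tested. Without single arrays the other counts ran from 6 to 7 between tumor types, 5 to 5 for hyperplasia and 4 to 4 for Wnt-1-induced tumors against hyperplasia. They were 7 to 7 and 6 to 7 for Wnt-1-induced and Neu-induced tumors against normal glands, 6 to 7 for fat against tumors, and 0 to 0 for the metastases, p53 and interaction. Numbers in the sample titles recur between metastases and tumors, but arrays of the same number did not all deviate together (r from -0.06 to 0.29 in 7 Wnt-1 pairs and from -0.01 to 0.12 in 3 Neu pairs), and 1 of 10 metastases correlated best with its own number. With the replicate block 0 members were called in either. The number of pairs correlated by Pearson's r in Wnt-1-induced tumors was 2, and 3 without the arrays of SD over 1.3.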
